A study of Homo sapiens with 15 samples.

Results

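Adding 5 mM glucose to medium that already held 4 mM glutamine was studied in H1299, a cell line established from a human non-small cell lung carcinoma. The comparison set 3 libraries from cells in serum-free RPMI with glucose and glutamine against 3 from cells in serum-free RPMI with glutamine alone, 6 of the 15 libraries of the series. The members were chosen by medium as the labels give it, and all genes were read. All cells first spent 24 h in RPMI with 5% FBS (fetal bovine serum) and then 12 h in the test medium, so serum had been withdrawn from both groups, and the group with glutamine alone can also be read as glucose withdrawal with glutamine present. The other 9 libraries came from medium with neither nutrient, with glucose alone, and with glucose and 4 mM NH4Cl, an ammonium salt. They entered the fit of the spread, and the first 2 of these media also gave the glucose effect without glutamine. The labels describe triplicate cells of 1 line and give neither a day nor a batch, so the p-values speak only of the spread among these samples, and that spread may be technical.

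Poly(A) RNA was counted per gene, with totals of 16290419 to 19938691 counts in the libraries with glutamine alone and 15615726 to 17300396 in those with both nutrients. A floor of 3 counts lay at 0.15 to 0.192 CPM (counts relative to the library's total), and such floors cover counting error only. Replicate 3 with both nutrients stood apart in the number of genes seen, 33716 against 24753 to 26876 in the other 5 libraries. It held 7626 genes that the other libraries with both nutrients did not show, with a median of 1 count each and 0.0671% of its counts together. The epithelial keratin genes KRT8 (311 to 346 CPM, relative to library totals) and KRT18 (348 to 440 CPM) were high in every library. So was the mesenchymal filament gene VIM (2206 to 2436 CPM). Another listed keratin gene, KRT19, was low, at 12 to 25 counts. The defining epithelial genes CDH1 (0 to 5 counts) and EPCAM (4 to 16 counts) and the lung genes NKX2-1 (1 to 5 counts), SFTPB (0 to 4 counts) and SFTPC (0 to 2 counts) were near absent. Markers of other cell types were low: 5 fibroblast markers summed to 1.04 to 1.45 CPM with glutamine alone and 2.97 to 3.18 CPM with both, with LUM at 0, and 5 leukocyte markers to 4.91 to 5.40 and 5.70 to 6.59 CPM, with CD3E at 0. Most of the leukocyte sum came from CORO1A (4.665 to 5.386 CPM). The endothelial sum of 4 markers was 11.7 to 12.5 and 17.5 to 19.5 CPM, nearly all of it from ENG. In bulk RNA, fewer cells of a kind and less RNA per cell cannot be told apart.

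As background, the endoplasmic reticulum folds secreted and membrane proteins and adds sugar chains built from glucose-derived precursors. When unfolded proteins collect there, the sensors IRE1, PERK and ATF6 start the unfolded protein response, which induces chaperones such as BiP, and PERK phosphorylates the initiation factor eIF2alpha. That phosphorylation, which the amino acid sensor GCN2 also performs, favours translation of ATF4, and ATF4 and its partner CHOP induce amino acid transporters, synthetic enzymes and tRNA synthetases. Sterol synthesis is set by SREBP factors, which INSIG proteins hold in the endoplasmic reticulum through SCAP.

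The sequences of promoters are shown first for the chaperone genes, because several of those that fell furthest share a known element there. The endoplasmic reticulum stress element (ERSE, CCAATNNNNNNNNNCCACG) binds NF-Y at its CCAAT end and ATF6 or XBP1 at its CCACG end. The sequences are from RefSeq (GRCh38.p14) and run 5′ to 3′ on the gene's strand, over the 250 bases before the start, with the fixed letters of each element in capitals. HSPA5, the gene of BiP, lies on the minus strand, and its window is chr9:125241344-125241593. HSP90B1, the gene of GRP94, lies on the plus strand, its window is chr12:103930160-103930409, and the second of its elements reads on the other strand.
HSPA5: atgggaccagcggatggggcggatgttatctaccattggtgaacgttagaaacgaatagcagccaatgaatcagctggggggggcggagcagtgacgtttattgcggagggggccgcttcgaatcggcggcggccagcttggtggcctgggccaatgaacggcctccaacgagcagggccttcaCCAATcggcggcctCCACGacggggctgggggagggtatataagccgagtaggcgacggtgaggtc
HSP90B1: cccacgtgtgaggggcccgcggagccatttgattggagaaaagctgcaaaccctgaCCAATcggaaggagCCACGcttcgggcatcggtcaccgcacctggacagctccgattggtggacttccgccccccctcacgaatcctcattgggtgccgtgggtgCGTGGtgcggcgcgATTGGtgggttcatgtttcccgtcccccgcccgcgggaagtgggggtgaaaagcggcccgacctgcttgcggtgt

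Single elements from other genes follow with 15 bases on each side, on the strand that carries the element, to show how the spacer differs while the ends hold. HERPUD1 and HYOU1 carry the shorter form ERSE-II (ATTGGNCCACG), and HYOU1 carries it at 2 places.
CALR, chr19:12938369-12938417, minus strand: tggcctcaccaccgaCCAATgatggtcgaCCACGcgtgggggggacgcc
CANX, chr5:179698763-179698811, plus strand: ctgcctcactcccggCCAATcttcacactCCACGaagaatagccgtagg
XBP1, chr22:28800588-28800636, minus strand: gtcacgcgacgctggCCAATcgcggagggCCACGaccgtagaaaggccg
CRELD2, chr22:49918539-49918587, minus strand: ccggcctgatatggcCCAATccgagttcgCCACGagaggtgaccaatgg
HERPUD1, chr16:56932010-56932050, plus strand: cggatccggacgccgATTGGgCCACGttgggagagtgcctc
HYOU1, chr11:119057259-119057299, plus strand: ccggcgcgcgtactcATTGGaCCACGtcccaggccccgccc

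Both strands were searched from 250 bases before to 50 after the start, and ERSE and ERSE-II share the letters CCACG at one end. ERSE was found in 22 of 27305 promoters in the RefSeq table (0.0806%) and in 14 of the 11574 that belong to tested genes. Over all 11574 of these, 3971 genes fell with glucose and 4148 rose. Of the 14 genes with ERSE 12 fell with glucose, 0 rose, and TRIM5 (log2 0.14 ± 0.09) and ZNF17 (-0.21 ± 0.19) were not called. The 12 share 11 separate elements, since CRELD2 and ALG12 share one, EIF2A and SERP1 share another, and HSP90B1 has 2. In the list of chaperones 5 of 19 promoters held ERSE (26.3%). Related lists held it less often, at 1 of 11 for stress sensors and factors (9.09%) and 1 of 20 for oxidative folding (5%). In degradation from the reticulum 0 of 23 promoters held it. ERSE-II was in 15 promoters (0.0549%), 11 of them of tested genes, of which 6 fell, 4 rose and 1 was not called. A match is a description of these windows and not evidence of binding, and the lists were chosen with knowledge of such targets.

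Glucose changed most of the measured transcriptome. By edgeR's quasi-likelihood test at a Benjamini-Hochberg adjusted p under 0.05, 11073 of 16889 tested genes were called (65.6%), 5502 higher (32.6%) and 5571 lower (33%). At least 2-fold, 948 genes rose (5.61%) and 783 fell (4.64%). The libraries of both groups did not overlap for 11520 genes (68.2%). Many of the called changes were small: their median size was 0.456 on the log2 scale, and 2686 were under 1.2-fold. At least 4-fold changes numbered 102 upward and 127 downward. Where the mean was 5 CPM or more and the groups did not overlap, log2 changes ran from -6.12 for HSPA6 to 2.93 for IDI1. When the test asked for more than a 1.2-fold change, 6485 genes remained called, 3317 higher and 3168 lower. These shares are the background against which each list below is read. Scaling mattered for small changes. With library totals alone instead of TMM scaling, all values shift up by 0.099, and 6764 genes were called higher and 4359 lower, so that 60.8% of calls were upward instead of 49.7%. The direction of a list is therefore read relative to the median gene, and lists whose balance of rises and falls turns with this shift are marked. Levels below are TMM-scaled CPM of each library in the order of replicates 1 to 3, and the ± beside a log2 change is its standard error (SE) in the fit. They compare a gene with itself between media, since CPM is not scaled for gene length.

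**Figure D1:**
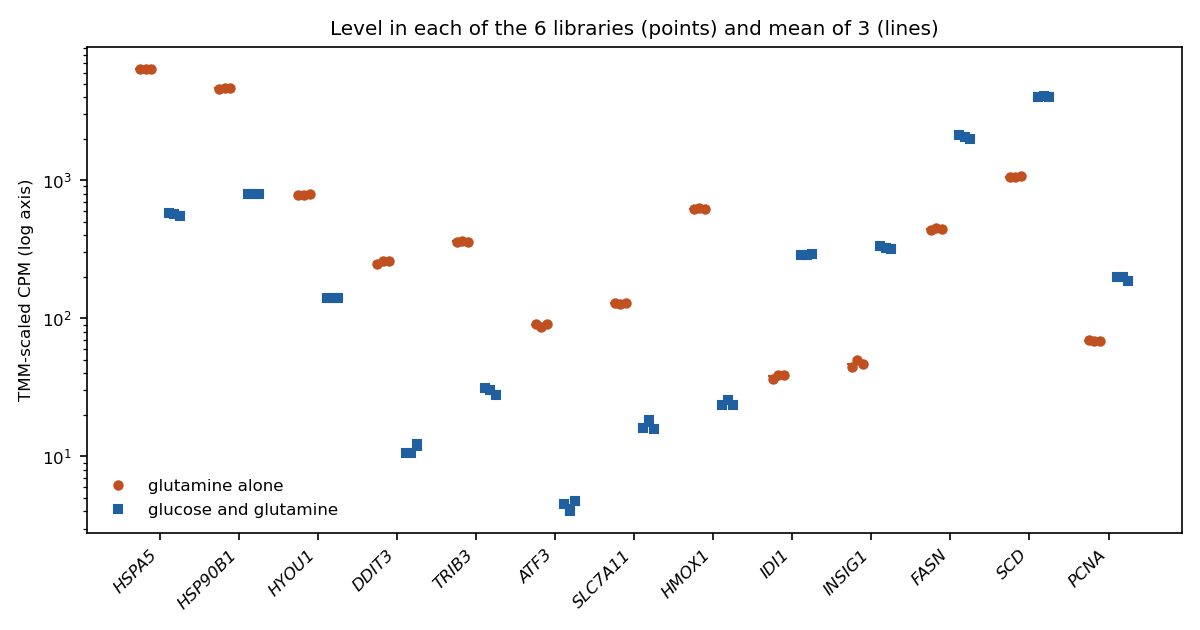
TMM-scaled CPM (log axis) of 13 genes in each of the 6 libraries, with circles for glutamine alone, squares for glucose with glutamine and lines for the mean of 3. For each gene the 3 points of a medium lie close together and the 2 media do not overlap. HSPA5 falls from 6345 to 568 CPM on average and IDI1 rises from 37.9 to 289 CPM.

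The chaperones of the endoplasmic reticulum made up one of the groups with the deepest falls. Of 21 members 16 fell and 2 rose, with a list median of -1.57 on the log2 scale beside -0.00547 for all tested genes, and 11 members fell at least 2-fold. HSPA5 (ENSG00000044574, GRCh38 chromosome 9, 125234853 to 125241330), the Hsp70 chaperone that also holds the stress sensors inactive, stood at 6338, 6328 and 6369.6 CPM with glutamine alone and 581, 572 and 550.1 CPM with both nutrients. All 3 libraries with glutamine alone lay above all 3 with both, by an 11.2-fold difference of means (log2 -3.48 ± 0.017, adjusted p = 2.15e-215 by edgeR). HSPA5 alone took 0.636% to 0.642% of all counts with glutamine alone and 0.0596% to 0.0624% with both. HSP90B1 (ENSG00000166598, GRCh38 chromosome 12, 103930107 to 103953645), the Hsp90 of the same compartment, stood at 4599, 4671 and 4681 CPM with glutamine alone and 795, 787 and 788 CPM with both nutrients (log2 -2.56 ± 0.017). HYOU1, an Hsp70-like exchange factor for BiP, stood at 787, 783 and 798 CPM with glutamine alone and 139.8, 139.8 and 140.4 CPM with both nutrients (log2 -2.50 ± 0.024). For both genes the groups lay far apart and replicates spread by a few per cent.

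The lectin chaperones, which hold glycoproteins with monoglucosylated sugars, fell too. CALR, the gene of calreticulin, stood at 2087, 2089 and 2084 CPM with glutamine alone and 546, 554 and 532 CPM with both nutrients (log2 -1.94 ± 0.019). CANX, of calnexin, stood at 1953, 1971 and 1977 CPM with glutamine alone and 659.6, 655 and 672 CPM with both nutrients (log2 -1.57 ± 0.018). Neither gene showed overlap between the groups. Their partner UGGT1, which puts glucose back on unfolded glycoproteins, fell by less (-0.43 ± 0.028). Among J-domain cochaperones of BiP the falls reached -1.97 for DNAJB11, -1.81 for DNAJC3 and -1.58 for DNAJB9, and were smaller for DNAJC10 (-0.71) and DNAJC1 (-0.67). SDF2L1, CRELD2 and MANF, small proteins of the stressed reticulum, fell by 1.82, 1.99 and 1.82. The 2 members that rose were SDF2 (0.39 ± 0.075), a relative of SDF2L1, and FKBP14 (0.70 ± 0.07), a prolyl isomerase. SIL1, an exchange factor for BiP, fell by 0.80, and MESD (0.11 ± 0.068) and CNPY2 (0.22 ± 0.14) were not called.

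The sensors and factors of the unfolded protein response fell by less than the chaperones. Of 11 genes 8 fell and ATF6B rose (0.24 ± 0.032), with a median of -0.47. XBP1, whose messenger IRE1 splices to make an active factor, stood at 101, 99.1 and 105 CPM with glutamine alone and 33.4, 34.8 and 34.9 CPM with both nutrients (log2 -1.56 ± 0.04). Counts per gene do not tell its spliced form from the unspliced one. ERN1, the gene of IRE1, fell by 1.24, ATF6 by 0.67 and EIF2AK3, the gene of PERK, by 0.60. The site 2 protease gene MBTPS2 fell by 0.47. CREBRF, a regulator that counters the related factor CREB3, fell by 1.14.

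In oxidative folding, where disulfide isomerases form and exchange bonds, 14 of 21 tested genes fell and 5 rose (median -0.30). The classical isomerases led. PDIA4 stood at 752, 750.3 and 764 CPM with glutamine alone and 208, 207 and 205 CPM with both nutrients (log2 -1.87 ± 0.023). PDIA3, the isomerase that works with calnexin, fell by 1.41, PDIA6 by 1.12 and P4HB by 1.09. The oxidases that feed them differed, with ERO1B at -1.01 ± 0.11 and ERO1A, which is known to respond to hypoxia, at -0.11 ± 0.039, a call lost without replicate 3 with both nutrients (-0.05). Small rises were called for GPX8 (0.15) and TMX1 (0.14).

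Degradation of misfolded proteins from the reticulum split by component. Of 29 genes 18 fell and 6 rose (median -0.25). HERPUD1, a scaffold of the degradation complex, stood at 187, 179 and 176 CPM with glutamine alone and 27.5, 26.2 and 29 CPM with both nutrients (log2 -2.71 ± 0.038). The ligase gene SYVN1 and its partner SEL1L fell by 1.0 and 1.54. DERL3, a channel component, stood at only 5.37, 6.34 and 6.09 CPM with glutamine alone and 1.41, 1.07 and 0.854 CPM with both nutrients (log2 -2.42 ± 0.2). The cytosolic extraction machine did not move in that direction: VCP, the ATPase, rose by 0.17, its adaptors UFD1 and NPLOC4 by 0.16 and 0.15. The mannosidase-like genes parted, with EDEM1 at -0.66 ± 0.068, EDEM2 not called (0.02 ± 0.047) and EDEM3 at 0.86 ± 0.054.

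Entry into the reticulum changed less. Of 24 genes of signal recognition and the translocon 14 fell and 5 rose (median -0.19). SEC63, which links BiP to the channel, fell by 0.94, and SSR3, a subunit of the translocon-associated complex, by 0.70. The channel subunits themselves were near the median gene, with SEC61A1 at -0.21 ± 0.023, SEC61B not called (0.033 ± 0.044) and SEC61G at 0.22 ± 0.048. SRP9, an RNA-binding subunit of the signal recognition particle, rose (0.62 ± 0.028).

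Sugar chains of glycoproteins begin as glucose-derived precursors, so their genes were read in 3 lists. In the oligosaccharyltransferase list 9 of 15 genes fell and 4 rose (median -0.37). Both catalytic subunits fell, STT3A by 0.76 and STT3B by 0.74, while the small subunits DAD1 (0.37), OST4 (0.36) and TMEM258 (0.18) rose. Among 24 genes that assemble the lipid-linked precursor 12 fell and 6 rose (median -0.18), from ALG5 at -0.78 to DPM3, a subunit of dolichol phosphate mannose synthase, at 1.03. The hexosamine and nucleotide sugar list gave 16 falls and 7 rises of 34 (median -0.12). Its sign of balance rests on scaling, since library totals alone gave 13 falls and 13 rises (median -0.03). GFPT1, the first enzyme of the hexosamine pathway, stood at 135, 129 and 132 CPM with glutamine alone and 84.1, 83.1 and 76.7 CPM with both nutrients (log2 -0.70 ± 0.032). UAP1, which makes UDP-N-acetylglucosamine, fell by 1.27, and GMPPB, which makes GDP-mannose, by 1.14. OGT, which places N-acetylglucosamine on cytosolic proteins, fell by 0.74, and OGA, which removes it, had 0.098 ± 0.026, a call lost at 0.08 with no filter on low counts.

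Vesicle coats between the reticulum and the Golgi changed little and in a way that rests on scaling. Of 32 genes 22 fell and 6 rose (median -0.13), but with library totals alone 10 fell and 9 rose. The larger falls were those of the cargo receptor TMED10 (-0.61 ± 0.026) and the coat adaptor SEC24B (-0.54 ± 0.038), and its relatives SEC24A (0.21) and SEC23A (0.33) rose.

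**Figure D2:**
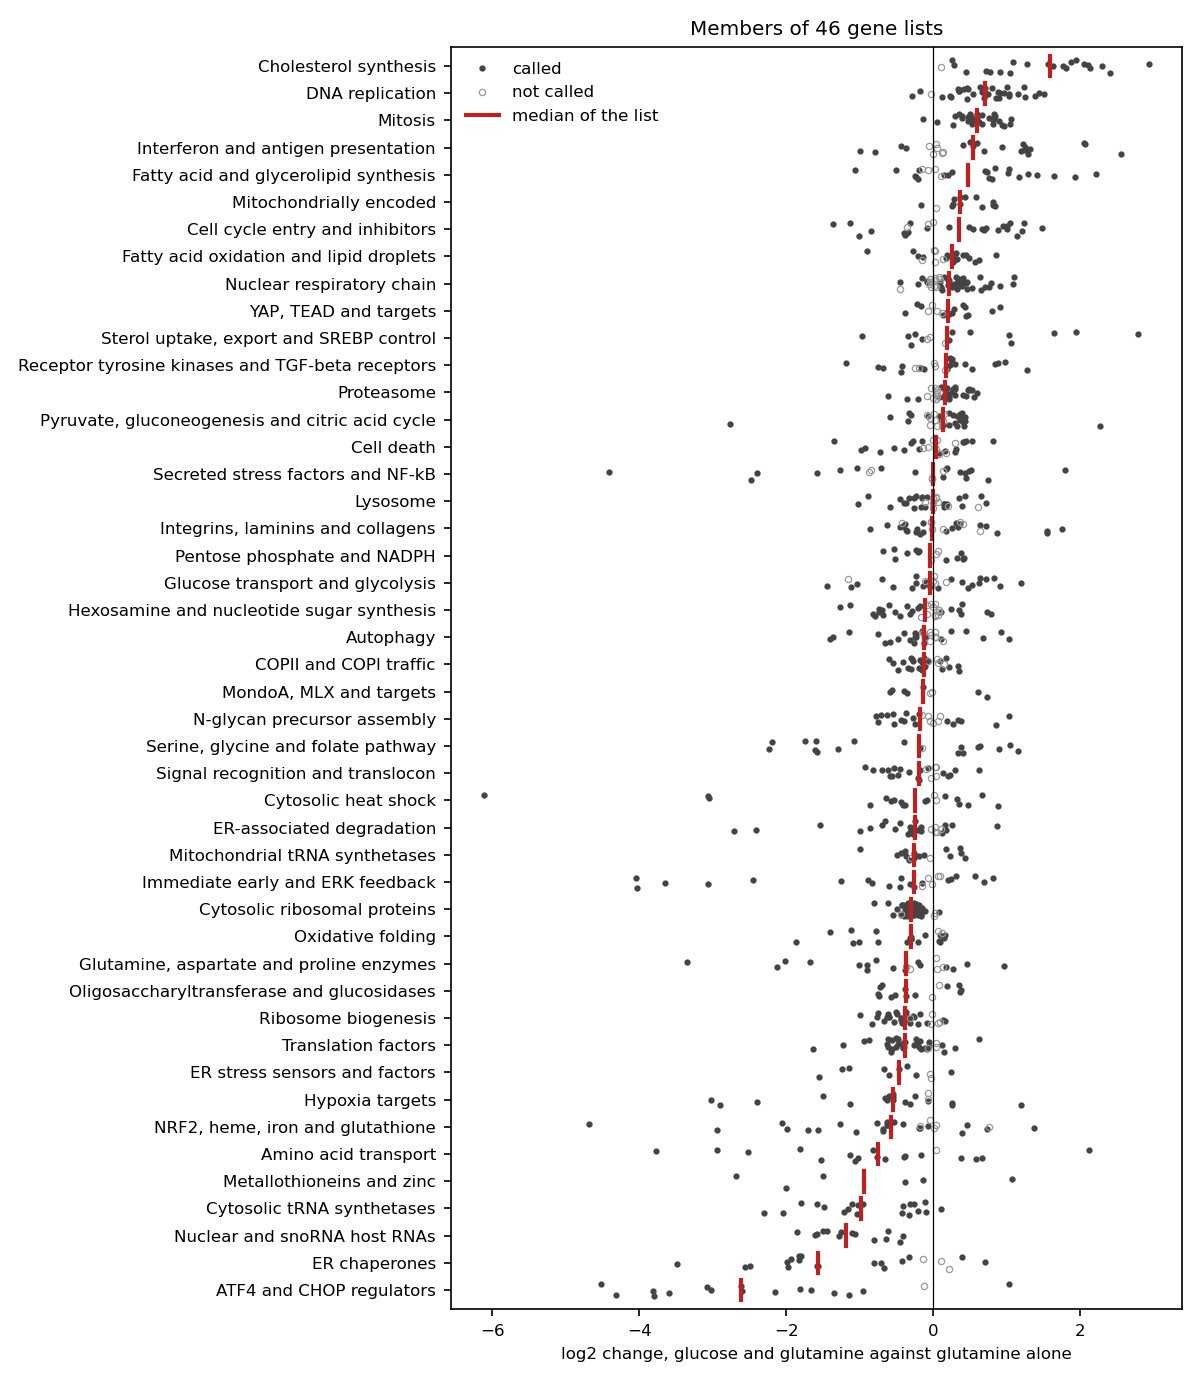
Log2 change of every tested member of 46 gene lists between both nutrients and glutamine alone (horizontal axis), with filled points for called members, open points for members not called and a red bar for the list median. Lists are ordered by median, from -2.61 for ATF4 and CHOP regulators and -1.57 for chaperones to 1.59 for cholesterol synthesis.

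The regulators around ATF4 and CHOP fell furthest of the 46 lists. Of 17 genes 15 fell and ATF5 rose, with a median of -2.61. DDIT3 (ENSG00000175197, GRCh38 chromosome 12, 57516588 to 57521737), the gene of CHOP, stood at 247, 259 and 260.1 CPM with glutamine alone and 10.6, 10.5 and 12.2 CPM with both nutrients. The groups lay 22.9-fold apart with no overlap (log2 -4.52 ± 0.043, adjusted p = 2.28e-163 by edgeR). ATF3, a repressor induced in the same response, stood at 90.1, 86.1 and 91 CPM with glutamine alone and 4.51, 4.05 and 4.75 CPM with both nutrients (log2 -4.32 ± 0.062). TRIB3, a pseudokinase that dampens ATF4 and CHOP, stood at 357, 364 and 359 CPM with glutamine alone and 31.2, 30.3 and 27.8 CPM with both nutrients (log2 -3.60 ± 0.031). ATF4 itself stood at 554, 543 and 537 CPM with glutamine alone and 173, 172 and 173 CPM with both nutrients (log2 -1.66 ± 0.022), a smaller fall than those of DDIT3, ATF3 and TRIB3. ATF4 is known to be controlled mainly in translation, which these counts do not measure.

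Further members of this list act on stress outputs. CHAC1, which degrades glutathione, fell by 3.81, and SESN2 and DDIT4, both of which restrain mTORC1, by 3.09 and 3.03. PPP1R15A, whose product GADD34 reverses the phosphorylation of eIF2alpha, stood at 197, 201 and 199 CPM with glutamine alone and 33.2, 33.6 and 30.7 CPM with both nutrients (log2 -2.62 ± 0.03). The C/EBP factors CEBPB and CEBPG fell by 2.61 and 1.81. EIF4EBP1, an inhibitor of cap-dependent initiation, fell by 0.96, and VLDLR was not called (-0.13 ± 0.069). ATF5, another factor of the family, went the other way at 15.9, 15.3 and 15.3 CPM with glutamine alone and 32, 32.1 and 30.4 CPM with both nutrients (log2 1.02 ± 0.063).

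Amino acid transporters fell in the main. Of 19 tested genes 14 fell and 4 rose (median -0.76). SLC7A11, the cystine and glutamate exchanger, stood at 129, 126 and 129.6 CPM with glutamine alone and 16.1, 18.2 and 15.7 CPM with both nutrients (log2 -2.94 ± 0.044). SLC3A2, the heavy chain it shares with SLC7A5, fell by 2.52, and SLC7A5, a carrier of large neutral amino acids, by 1.81. SLC6A9, a glycine carrier, stood at 28.7, 27.4 and 26 CPM with glutamine alone and 2.37, 1.67 and 1.92 CPM with both nutrients (log2 -3.78 ± 0.11). Carriers of glutamine fell by less, SLC1A5 by 0.82, SLC38A1 by 0.66 and SLC38A2 by 0.38. The rises were SLC1A3, a glutamate and aspartate carrier, at 0.244, 0.399 and 0.183 CPM with glutamine alone and 0.902, 1.55 and 1.33 CPM with both nutrients (log2 2.12 ± 0.38, with the first group near the floor), SLC7A6 (0.66), SLC36A4 (0.58) and the taurine carrier SLC6A6 (0.38).

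Enzymes of amino acid synthesis parted by compartment and step. In the serine and folate list 10 of 19 fell and 8 rose (median -0.19). Serine synthesis fell at PHGDH (-1.59 ± 0.027) and PSAT1 (-1.59 ± 0.024) and by less at PSPH (-0.19 ± 0.043). Mitochondrial folate enzymes fell, MTHFD2 by 2.24, SHMT2 by 1.74, MTHFD1L by 1.30 and ALDH1L2 by 2.19. Their cytosolic counterparts SHMT1 (0.60 ± 0.042) and MTHFD1 (0.38 ± 0.025) rose, as did TYMS (0.89 ± 0.03), which makes thymidylate. CTH and CBS, of the route from homocysteine to cysteine, fell by 1.61 and 1.07.

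Around glutamine, aspartate and proline 13 of 22 genes fell and 4 rose (median -0.37). ASNS, asparagine synthetase, stood at 24, 26.4 and 24.1 CPM with glutamine alone and 2.54, 2.15 and 2.56 CPM with both nutrients (log2 -3.36 ± 0.11). Its pseudogene ASNSP1 stood at 34.2, 30.2 and 34.5 CPM with glutamine alone and 2.42, 1.97 and 1.98 CPM with both nutrients (log2 -3.95 ± 0.099). Both are uncertain, because they share sequence, and how reads with several matches were counted is not stated in the sources used here. GOT1, the cytosolic aspartate transaminase, fell by 2.12, while the mitochondrial GOT2 rose (0.17 ± 0.03). PYCR1, the last step to proline, fell by 2.02, ASS1 of arginine synthesis by 1.67. GLUL, glutamine synthetase, was not called (0.047 ± 0.04, adjusted p = 0.31 by edgeR).

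Cytosolic tRNA synthetases fell in 2 sets. Of 20 genes 19 fell and HARS1 rose (0.10 ± 0.032, adjusted p = 0.0027 by edgeR, a call lost at 0.08 with no filter on low counts), with a median of -0.99. Of these, 11 lay between -2.30 and -0.96, and the other 9 between -0.42 and 0.10, with no gene between. This gap was seen in the data and carries no test. WARS1, the tryptophan enzyme, stood at 636, 649.6 and 649.8 CPM with glutamine alone and 129.6, 131 and 131 CPM with both nutrients (log2 -2.30 ± 0.024). AARS1, the alanine enzyme, stood at 1004, 1018 and 1033 CPM with glutamine alone and 248, 250.1 and 244 CPM with both nutrients (log2 -2.04 ± 0.02). GARS1, CARS1 and SARS1 fell by 1.80, 1.58 and 1.48. QARS1, the glutamine enzyme, fell only by 0.21, and LARS1 and RARS1, of leucine and arginine, by 0.41 and 0.10. Mitochondrial synthetases lay closer to the median gene, with 10 falls and 5 rises of 17 (median -0.26). WARS2, the tryptophan enzyme of mitochondria, had the deepest of these falls (-0.99 ± 0.064).

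**Figure D3:**
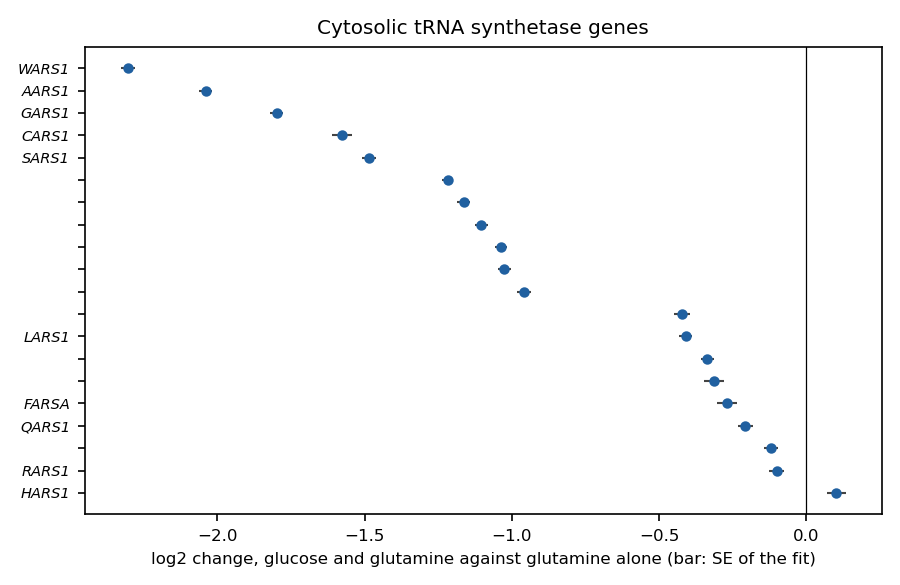
Log2 change (horizontal axis) of each of the 20 cytosolic tRNA synthetase genes, all called, with bars for the SE of the fit and labels for those named in the text. The 11 most lowered genes lie at -2.30 to -0.96 and the other 9 at -0.42 to 0.10.

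ATF4 binds with C/EBP partners at the CARE element, searched here as TGATGNAA on both strands. It was in 1003 of 27305 promoters (3.67%) and in 190 of the 11574 of tested genes (1.64%). Of these 190 genes 82 fell, 55 rose and 53 were not called, beside 3971 falls and 4148 rises over all 11574. Among genes that fell at least 2-fold 26 of 450 promoters held CARE (5.78%), and among those that rose at least 2-fold 10 of 603 (1.66%). It was in 2 of 14 promoters of the ATF4 and CHOP regulators (14.3%). In the amino acid transport list 4 of 16 held it (25%), and in the serine and folate list 1 of 16 (6.25%). Of the cytosolic synthetases 6 of 16 promoters in the table held it (37.5%). All 6 were among the 11 genes that fell most, of which 10 had a promoter in the table, and 0 of 6 promoters of the other 9 genes held it. As for ERSE, a match is not evidence of binding, and the lists were chosen with knowledge of such targets. List members with the element that rose, such as SLC1A3 (2.12) and HSPA4L (0.87), are not shown. Examples from genes of different roles that fell are shown with 15 bases on each side and the fixed letters in capitals. Each is on the strand that carries the element.
AARS1, chr16:70289671-70289708, plus strand: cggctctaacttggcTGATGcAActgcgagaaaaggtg
ASNS, chr7:97872454-97872491, minus strand: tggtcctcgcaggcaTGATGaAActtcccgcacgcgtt
ATF3, chr1:212565201-212565238, plus strand: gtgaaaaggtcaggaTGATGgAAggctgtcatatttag
CHAC1, chr15:40953247-40953284, minus strand: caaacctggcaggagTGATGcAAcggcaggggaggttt
GOT1, chr10:99430800-99430837, plus strand: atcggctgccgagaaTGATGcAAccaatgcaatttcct

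Cholesterol synthesis rose almost without exception. Of 22 genes 21 rose, 0 fell, and CYP51A1 was not called (0.11 ± 0.08, adjusted p = 0.236 by edgeR), with a median of 1.59. IDI1 (ENSG00000067064, GRCh38 chromosome 10, 1039152 to 1049170), which isomerises isopentenyl diphosphate, stood at 36.5, 38.8 and 38.5 CPM with glutamine alone and 289, 289 and 289.9 CPM with both nutrients. The groups did not overlap and differed 7.62-fold (log2 2.93 ± 0.033). HMGCS1, which makes HMG-CoA in the cytosol, stood at 71.5, 73.6 and 78.3 CPM with glutamine alone and 366, 364 and 365 CPM with both nutrients (log2 2.29 ± 0.03). Along the pathway FDPS rose by 2.40, MVD by 2.13, FDFT1 by 1.94, SQLE by 1.28, LSS by 1.76 and MSMO1 by 2.05. The smaller rises were those of NSDHL (0.25 ± 0.048) and PMVK (0.44 ± 0.054).

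The genes of sterol uptake and control went with it in part. Of 16 tested genes 8 rose and 5 fell (median 0.18). INSIG1 (ENSG00000186480, GRCh38 chromosome 7, 155297776 to 155310235), itself a target of SREBP, stood at 44.3, 49.6 and 46.7 CPM with glutamine alone and 331, 322 and 318 CPM with both nutrients (log2 2.78 ± 0.033). STARD4, a sterol carrier, rose by 1.02. Among the factors SREBF1 rose by 1.06 ± 0.029 and SREBF2 by 0.50 ± 0.028, while SCAP fell (-0.26 ± 0.036). ABCA1, which exports cholesterol and is a target of the LXR receptors, fell (-0.97 ± 0.061), and NPC1, which releases sterol from lysosomes, fell by 0.35. Searched as TCACNCCAC on both strands, a sterol regulatory element was in 313 promoters (1.15%) and in 0 of those of the cholesterol list, which says only that these letters are not in these windows.

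Fatty acid synthesis rose in its central steps. Of 26 tested genes 16 rose and 6 fell (median 0.47). FASN, fatty acid synthase, stood at 438, 451 and 446 CPM with glutamine alone and 2129.5, 2052 and 1992 CPM with both nutrients (log2 2.21 ± 0.019). SCD, which puts in the first double bond, stood at 1048, 1061 and 1065 CPM with glutamine alone and 4004, 4038 and 4001 CPM with both nutrients (log2 1.92 ± 0.016). ACLY, which makes cytosolic acetyl-CoA from citrate, stood at 170.2, 173 and 173 CPM with glutamine alone and 454, 471 and 452 CPM with both nutrients (log2 1.42 ± 0.025). In each of these the groups did not overlap. ACACA, which makes malonyl-CoA, rose by 0.70, ACSS2, which activates acetate, by 1.03, the elongase gene ELOVL6 by 1.01 and FADS1 by 1.16. PNPLA3 and LPIN1 rose by 1.29 and 1.64. MID1IP1, which helps acetyl-CoA carboxylase to polymerise, fell (-1.06 ± 0.051), and DGAT1 fell by 0.50. Oxidation genes rose modestly, 16 of 25 with 4 falls (median 0.25), with PLIN3 at 0.85 and HADH at 0.40, while CPT1A, the gate of mitochondrial import, was not called (0.0079 ± 0.031).

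Glucose transport and glycolysis did not move as a block. Of 31 tested genes 13 fell and 11 rose (median -0.04), and with library totals alone 7 fell and 14 rose (median 0.06). SLC2A3, a high-affinity glucose transporter, stood at 117, 115 and 111 CPM with glutamine alone and 41, 41.9 and 42.9 CPM with both nutrients (log2 -1.45 ± 0.036). HK2, a hexokinase, stood at 119, 122 and 122 CPM with glutamine alone and 56.5, 61.7 and 57.6 CPM with both nutrients (log2 -1.05 ± 0.034). SLC2A1, the common glucose transporter, fell by 0.55. Rises were those of TPI1 (0.39 ± 0.018) and of the later-step enzymes PGK1 (0.47 ± 0.02), PGAM1 (0.62 ± 0.024) and PKM (0.53 ± 0.015), among others. LDHA, which turns pyruvate into lactate, stood at 337, 324 and 324 CPM with glutamine alone and 614, 621 and 614 CPM with both nutrients (log2 0.91 ± 0.021). SLC16A3, which exports lactate, rose by 0.71. GAPDH, also of the later steps, had -0.048 ± 0.014, which turned to 0.05 with library totals alone and lost its call without replicate 1 with glutamine alone (-0.03). PFKFB4 rose by 1.2 while PFKFB3 was not called (0.0031 ± 0.049).

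MondoA and MLX sense glucose 6-phosphate and induce arrestin-domain genes. TXNIP, their best known target, was too low to test, with 4, 8 and 5 counts with glutamine alone and 4, 5 and 7 with both. Of 9 tested genes 5 fell and 2 rose (median -0.14). ARRDC4 stood at 0.672, 0.499 and 0.792 CPM with glutamine alone and 1.07, 0.775 and 1.33 CPM with both nutrients (log2 0.72 ± 0.31), with overlap between the groups. That call was lost without replicate 1 (0.72) or 3 (0.52) with both nutrients and without replicate 1 (0.75) or 2 (0.54) with glutamine alone. MLXIPL, the gene of ChREBP, had 0.61 ± 0.24, lost without replicate 1 (0.58) or 2 (0.52) with both nutrients and without 1 (0.53) or 3 (0.50) with glutamine alone. ARRDC3 and ARRDC2 fell by 0.40 and 0.36. In the pentose phosphate and NADPH list 7 of 15 fell and 5 rose (median -0.04, and 0.06 with library totals alone). Its larger falls were H6PD, the reticulum's own glucose 6-phosphate dehydrogenase (-0.68 ± 0.043), and IDH1 (-0.53 ± 0.029).

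Mitochondrial metabolism rose by small steps. In the pyruvate and citric acid cycle list 21 of 35 rose and 6 fell (median 0.13). PDK4, a kinase that shuts pyruvate dehydrogenase, stood at 0.672, 0.499 and 0.426 CPM with glutamine alone and 2.76, 3.34 and 1.71 CPM with both nutrients (log2 2.27 ± 0.28). PCK2, the mitochondrial PEP carboxykinase, stood at 165, 167 and 174 CPM with glutamine alone and 25.5, 25.2 and 24 CPM with both nutrients (log2 -2.76 ± 0.039), the deepest fall of this list. Nuclear genes of the respiratory chain gave 34 rises and 5 falls of 51 (median 0.21), and library totals alone gave 41 and 0. NDUFB3 (1.09), ATP5MC1 (1.09) and COX7B (0.91) rose most. Of the 13 genes encoded in mitochondria 11 rose and MT-ND1 fell (median 0.36). MT-ATP6, a subunit of ATP synthase, rose by 0.84 ± 0.022.

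The NRF2 list, of oxidant, heme and iron genes, fell. Of 28 tested genes 19 fell and 4 rose (median -0.57). HMOX1 (ENSG00000100292, GRCh38 chromosome 22, 35380361 to 35394214), which breaks down heme, stood at 622, 630.2 and 614 CPM with glutamine alone and 23.5, 25.5 and 23.4 CPM with both nutrients. That is a 25.8-fold difference with no overlap (log2 -4.69 ± 0.032). GCLM, a subunit of the enzyme that starts glutathione synthesis, fell by 1.99, TXNRD1, thioredoxin reductase, by 1.71, and SRXN1, which repairs peroxiredoxins, by 1.58. The iron store subunits fell, FTH1 by 1.27 and FTL by 1.05, while the iron importer TFRC rose (0.73 ± 0.024), as did the exporter SLC40A1 (1.36 ± 0.29). NQO1, a frequent marker of NRF2, fell by 0.63 and the NRF2 gene NFE2L2 by 0.61, whereas PRDX1 rose (0.38 ± 0.021). Among 6 tested metallothionein and zinc genes 5 fell and the zinc importer SLC39A10 rose (1.08 ± 0.035). MT1X stood at 5.86, 6.64 and 5.73 CPM with glutamine alone and 0.902, 1.07 and 0.854 CPM with both nutrients (log2 -2.69 ± 0.18), and the zinc exporter SLC30A1 fell by 2.00.

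Cytosolic heat shock genes parted. Of 20 tested genes 12 fell and 6 rose (median -0.25). HSPA6 (ENSG00000173110, GRCh38 chromosome 1, 161524540 to 161526910), a strictly inducible Hsp70, stood at 126, 126 and 120.4 CPM with glutamine alone and 1.47, 2.03 and 1.87 CPM with both nutrients (log2 -6.12 ± 0.058), the largest fall of all genes named. HSPA1A stood at 3173, 3219 and 3164 CPM with glutamine alone and 384, 381 and 379 CPM with both nutrients (log2 -3.06 ± 0.015). HSPA1B, which is nearly identical, gave -3.06, and counts can be split between these copies in ways that the sources used here do not state, as they can between HSPA6 and its copy HSPA7. Their cochaperone genes moved less, DNAJB1 by -0.87 and BAG3 by -0.57. The inducible Hsp90 gene HSP90AA1 stood at 4478, 4541 and 4502 CPM with glutamine alone and 6313, 6290.3 and 6214 CPM with both nutrients (log2 0.48 ± 0.012), and its constitutive relative HSP90AB1 fell (-0.54 ± 0.013). HSPE1 and HSPA4L rose by 0.67 and 0.87.

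Among immediate early and ERK feedback genes 14 of 25 fell and 6 rose (median -0.27). FOS stood at 72.6, 73.2 and 68.2 CPM with glutamine alone and 4.62, 4.17 and 4.32 CPM with both nutrients (log2 -4.03 ± 0.057). FOSB stood at 28.8, 30.2 and 28.5 CPM with glutamine alone and 1.41, 1.91 and 1.98 CPM with both nutrients (log2 -4.04 ± 0.099). EGR1, a zinc finger factor of the same response, stood at 162, 155 and 157 CPM with glutamine alone and 12.7, 12 and 12.9 CPM with both nutrients (log2 -3.65 ± 0.042). Their relatives in the AP-1 family differed, with JUN at -0.89 ± 0.032, JUNB at -0.27 ± 0.045 and FOSL1 at 0.81 ± 0.022. DUSP1, a phosphatase for MAP kinases, fell by 1.25, while DUSP6, which is specific for ERK, fell by 0.46 and the ERK inhibitor SPRY2 rose (0.56 ± 0.04).

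Autophagy and lysosome genes gave mixed counts. Of 32 autophagy genes 17 fell and 6 rose (median -0.13). The receptor gene SQSTM1 stood at 907, 928 and 919 CPM with glutamine alone and 415, 417 and 409 CPM with both nutrients (log2 -1.15 ± 0.018). MAP1LC3B, whose product marks the autophagosome, fell by 1.41 and WIPI1 by 1.36, while GABARAPL2 and SESN3 rose by 0.92 and 1.02. Of 35 lysosome genes 15 fell and 11 rose (median -0.01), and with library totals alone 10 fell and 17 rose (median 0.09). They ran from CTSL at -1.02 to LIPA at 0.72.

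Genes of DNA replication and mitosis rose nearly throughout. Of 37 replication genes 34 rose and 2 fell, CDT1 (-0.29 ± 0.026) and PRIM1 (-0.18 ± 0.043), with a median of 0.70. PCNA (ENSG00000132646, GRCh38 chromosome 20, 5114953 to 5126626), the sliding clamp, stood at 69.7, 68.2 and 67.9 CPM with glutamine alone and 197, 199 and 187 CPM with both nutrients (log2 1.5 ± 0.032). MCM3, a subunit of the replicative helicase, stood at 89.8, 87.9 and 87.6 CPM with glutamine alone and 232, 237 and 226 CPM with both nutrients (log2 1.39 ± 0.03). FEN1, which trims Okazaki fragments, rose by 1.44, and RRM2, which makes deoxynucleotides, by 1.24. Of 30 mitosis genes 29 rose and UBE2C fell (-0.15 ± 0.029), with a median of 0.59. MKI67, a common marker of cycling cells, stood at 225, 233 and 235 CPM with glutamine alone and 469, 478 and 480.1 CPM with both nutrients (log2 1.04 ± 0.023). ASPM, a spindle pole protein, rose by 1.06 and AURKA, a spindle kinase, by 0.94.

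Regulators of cell cycle entry were split, with 15 rises and 10 falls of 28 (median 0.35). Cyclin genes moved apart: CCND3 rose by 1.13, CCNE2 by 1.04 and CCND1 by 0.72, while CCND2 fell by 1.13. SKP2, which targets the inhibitor p27, rose by 1.23, and the INK4 inhibitors CDKN2C and CDKN2D rose by 1.48 and 1.21. CDKN1A, of p21, fell by 0.39, and the stress genes GADD45A and GADD45B by 1.37 and 1.01.

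Genes of the translation machinery fell, mostly by small amounts. Of 77 tested ribosomal protein genes 73 fell and RPS26 rose (0.083 ± 0.026, a call lost at 0.05 without replicate 3 with glutamine alone), with a median of -0.30, and library totals alone gave 69 falls and 3 rises (median -0.20). RPL12, of the large subunit and among the larger falls, stood at 1381, 1369 and 1356 CPM with glutamine alone and 860.5, 906 and 911 CPM with both nutrients (log2 -0.62 ± 0.017), and RPL38 was not called (0.0026 ± 0.022). Processed pseudogenes, many of which copy such genes, gave 287 falls and 91 rises of 847 (median -0.24). Against a 1.2-fold change, 39 ribosomal protein genes passed as lower. Ribosome biogenesis gave 27 falls and 2 rises of 34 (median -0.38), with the nucleolar assembly factors RRP12 at -1.0, PES1 at -0.84 and NPM1 at -0.62. Translation factors gave 29 falls and 4 rises of 36 (median -0.39). EIF1, which guides start codon choice, stood at 809, 821 and 781 CPM with glutamine alone and 253, 266 and 254 CPM with both nutrients (log2 -1.64 ± 0.021). The elongation factor genes EEF1A1 and EEF2 fell by 0.51 and 0.63, the cap-binding EIF4E rose (0.30 ± 0.038), and EIF2B1, a subunit of the exchange factor that eIF2alpha phosphorylation inhibits, rose (0.62 ± 0.04). EEF1G was listed at 0 in all 6 libraries and was not tested.

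Proteasome genes rose instead, 24 of 38 with 3 falls (median 0.16). The rises were small, up to 0.59 for the assembly factor POMP, and the falls were those of PSMG2 (-0.21) and of the listed regulators NFE2L1 (-0.36) and NFE2L2 (-0.61).

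Targets of hypoxia fell, 15 of 20 with 3 rises (median -0.55). VEGFA, the angiogenic factor, stood at 99.8, 99.1 and 103 CPM with glutamine alone and 19.1, 17.8 and 20.3 CPM with both nutrients (log2 -2.40 ± 0.046). EPAS1, the gene of HIF2alpha, stood at 18, 16.2 and 16.3 CPM with glutamine alone and 1.92, 2.68 and 2.14 CPM with both nutrients (log2 -2.91 ± 0.12). NDRG1 fell by 1.5. The carbonic anhydrase genes CA9 and CA12, which are strong hypoxia targets elsewhere, were too low to test. Several members, such as VEGFA, DDIT4 and SLC2A1, belong to other lists or stress responses as well.

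Secreted stress factors and NF-kB targets had 10 rises and 8 falls of 23 (median -0.01, and 0.09 with library totals alone). GDF15 (ENSG00000130513, GRCh38 chromosome 19, 18374731 to 18389176), a stress cytokine, stood at 24.3, 24.9 and 23.2 CPM with glutamine alone and 1.01, 1.43 and 0.961 CPM with both nutrients. The groups lay 21.3-fold apart (log2 -4.41 ± 0.12). STC2, a glycoprotein hormone gene, fell by 2.49 and the chemokine gene CXCL2 by 1.58. BIRC3, an NF-kB target and ubiquitin ligase, stood at 40.4, 41 and 40.2 CPM with glutamine alone and 139, 143 and 139 CPM with both nutrients (log2 1.79 ± 0.036), and NFKBIA, the inhibitor of NF-kB, rose by 0.74. IL6, CXCL8 and FGF21 were too low to test. Of 27 cell death genes 10 fell and 9 rose (median 0.03), a balance that turned to 8 falls and 13 rises with library totals alone (median 0.13). TNFRSF10B, the TRAIL receptor DR5 and a CHOP target, stood at 153, 147 and 157 CPM with glutamine alone and 58.9, 58.3 and 61.7 CPM with both nutrients (log2 -1.35 ± 0.033). The BH3-only genes HRK and PMAIP1 fell by 0.98 and 0.93, BAD rose (0.81 ± 0.085), and BBC3 was not called (-0.14 ± 0.087).

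Interferon response and antigen presentation genes rose, 15 of 25 with 4 falls (median 0.54). IFIT1, which binds foreign RNA caps, stood at 0.855, 1.1 and 1.04 CPM with glutamine alone and 5.92, 4.95 and 6.89 CPM with both nutrients (log2 2.56 ± 0.19). OAS3, an oligoadenylate synthetase, stood at 11.8, 12.4 and 12.4 CPM with glutamine alone and 52, 52.3 and 49.3 CPM with both nutrients (log2 2.06 ± 0.062). PSMB9, a subunit of the immunoproteasome, stood at 3.36, 3.34 and 3.11 CPM with glutamine alone and 14.2, 11.9 and 14.6 CPM with both nutrients (log2 2.05 ± 0.12). For these 3 genes the groups did not overlap, at low levels for IFIT1. B2M, the light chain of class I molecules, rose by 0.59 and the peptide loading gene TAPBP by 1.22, while the heavy chain genes HLA-B (-0.0037 ± 0.03) and HLA-C (0.054 ± 0.04) were not called and HLA-E fell (-0.80 ± 0.03). IRF7 fell (-1.0 ± 0.091). The summed leukocyte markers were 4.91 to 5.40 CPM with glutamine alone and 5.70 to 6.59 CPM with both. Most of that sum was CORO1A (4.665 to 5.386 CPM), and the part of leukocytes in these values was not tested.

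Adhesion and growth signals were covered by 3 further lists. YAP and TEAD genes gave 11 rises and 3 falls of 18 (median 0.20), with ANKRD1 at 0.91 and CCN1 at 0.80, and CCN2, the usual reporter, not called (-0.022 ± 0.034). Receptor kinases and TGF-beta receptors gave 12 rises and 7 falls of 24 (median 0.17). ERBB3 rose by 1.27, EGFR by 0.53 and TGFBR2 by 0.83, and DDR2 and MET fell by 1.19 and 0.42. Integrins, laminins and collagens gave 11 rises and 12 falls of 31 (median -0.02), which turned to 14 rises and 8 falls with library totals alone (median 0.08). ITGB8 stood at 0.672, 0.549 and 0.609 CPM with glutamine alone and 2.2, 1.91 and 2.08 CPM with both nutrients (log2 1.76 ± 0.29). SPARC, a matrix glycoprotein, rose by 1.55 and COL1A1 by 1.54, the latter at 5 to 31 counts per library and also a fibroblast marker, whose list summed to 1.04 to 1.45 CPM with glutamine alone and 2.97 to 3.18 CPM with both. The part of other cells in that rise was not tested.

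All 14 nuclear and snoRNA host RNAs on the list fell, with a median of -1.19. Spliced host transcripts of snoRNA genes are known to be degraded when translated, and many carry the starts typical of ribosomal protein genes. GAS5 stood at 494, 482 and 477 CPM with glutamine alone and 159, 160.0 and 165 CPM with both nutrients (log2 -1.59 ± 0.025). SNHG12 and SNHG1 fell by 1.61 and 1.5, and EPB41L4A-AS1 by 1.85, an antisense gene whose value is uncertain, since the sources used here do not say whether strand was used in counting. NEAT1, the scaffold of paraspeckles, and MALAT1, of nuclear speckles, fell by less, at -0.42 ± 0.023 and -0.45 ± 0.048.

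Outside the lists, the 10 largest rises under the same limits of level and overlap held genes of several kinds. GDA, guanine deaminase, stood at 5.68, 4.49 and 5.12 CPM with glutamine alone and 36.8, 37.3 and 39.6 CPM with both nutrients (log2 2.90 ± 0.084). SEMA6B, a semaphorin, stood at 13.1, 13.5 and 14.2 CPM with glutamine alone and 82.8, 79 and 79.6 CPM with both nutrients (log2 2.56 ± 0.055). Both were low with glutamine alone and did not overlap with the group with both nutrients. ABCD2, a peroxisomal carrier of fatty acyl-CoA, rose by 2.65 ± 0.13, LBHD1 by 2.57 ± 0.15, SLCO4C1, an organic anion carrier, by 2.44 ± 0.12 and ANK1, the red cell ankyrin, by 2.27 ± 0.12. The 10 largest falls under these limits were HSPA6, HMOX1, DDIT3, GDF15, ATF3, FOSB, FOS, ASNSP1, CHAC1 and SLC6A9, all members of lists above or copies of one.

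The glucose effect was next set against the same addition in medium without glutamine, from glucose alone against neither nutrient, which shares no library with the first comparison. The difference between the 2 effects was tested in the same fit. It was called for 12635 of 16889 genes (74.8%), 6214 more positive with glutamine (36.8%) and 6421 more negative (38%). Of genes whose difference was called, 2563 fell with glutamine and rose without it, and 2643 rose with glutamine and fell without it. Whether or not the difference was called, 2131 genes fell in both settings and 1791 rose in both. Scaling weighs more here, since the medium with neither nutrient had TMM factors near 0.793. With library totals alone, all differences shift by -0.337 and 4324 were positive and 8497 negative (33.7% positive instead of 49.2%).

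**Figure D4:**
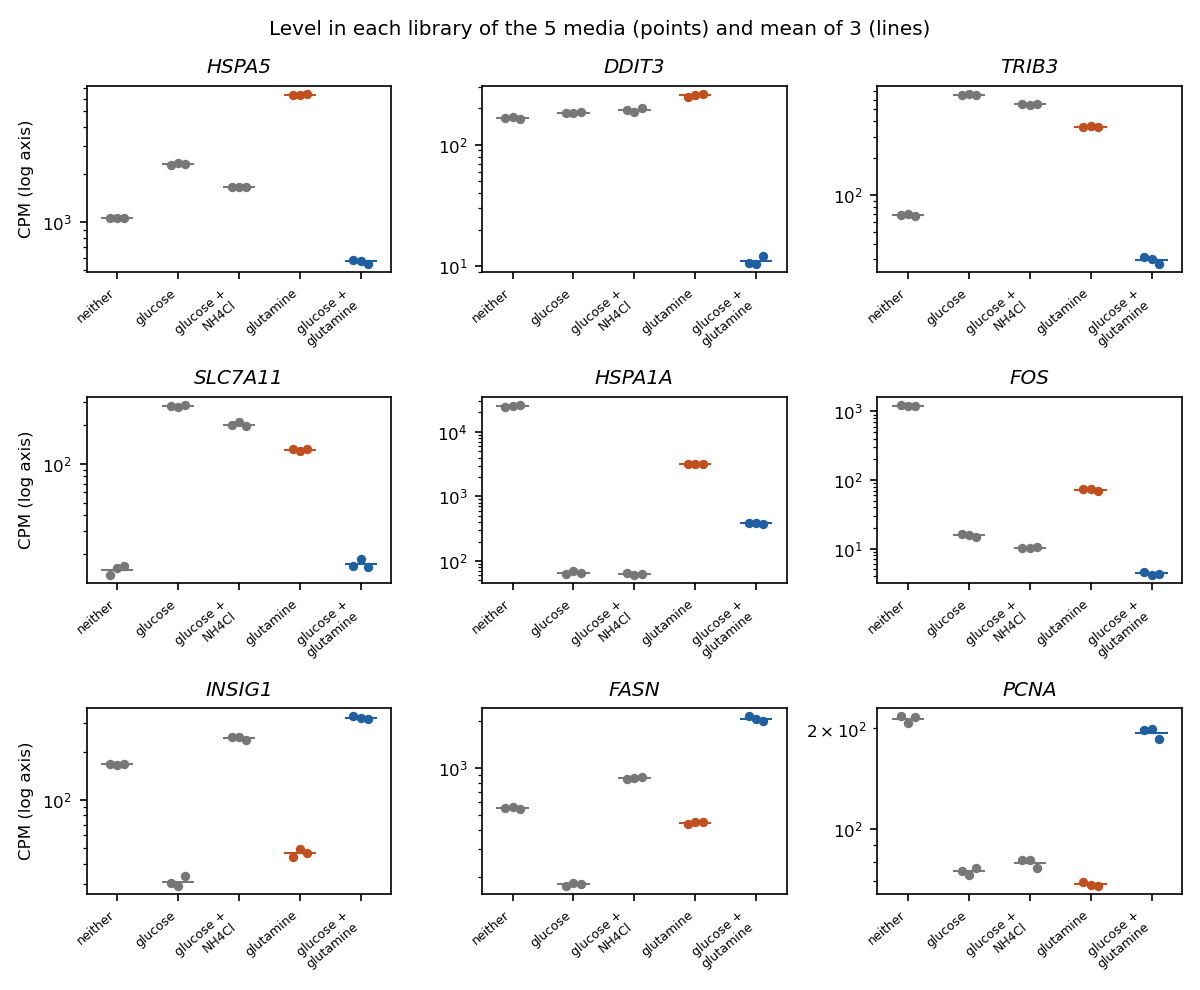
CPM (log axis) of 9 genes in each library of the 5 media, with lines for the mean of 3, glutamine alone in orange and both nutrients in blue. TRIB3 is highest with glucose alone, at 656 CPM, and lowest with both nutrients, at 29.8 CPM, whereas HSPA1A is highest with neither, at 25092 CPM.

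Most chaperone and ATF4 genes had a negative difference. In the chaperone list 14 of 21 were more negative and 4 more positive, with a median difference of -0.41 (-0.75 with library totals alone). HSPA5 averaged 1063 CPM with neither nutrient and 2337 CPM with glucose alone, so glucose raised it without glutamine and lowered it with glutamine (difference -4.62 ± 0.023 on the log2 scale). HSP90B1 fell in both settings, from 933 to 674 CPM without glutamine, with a difference of -2.09 ± 0.024. CALR fell in both settings too, from 736 to 219.8 CPM without glutamine (difference -0.20 ± 0.027). Of 17 ATF4 and CHOP regulators 15 were more negative with glutamine and 2 more positive, with a median difference of -2.73. DDIT3 averaged 166 CPM with neither and 184 CPM with glucose alone (difference -4.67 ± 0.054). TRIB3 averaged 68.9 and 656 CPM, with a difference of -6.85 ± 0.041. Differences were ranked only among genes called both for the difference and for the glucose effect with glutamine. These genes also had to average 5 CPM or more over the 6 libraries with glutamine. Within that set TRIB3 was among the 6 most negative. SLC7A11 averaged 15.1 and 279 CPM (difference -7.16 ± 0.062). For TRIB3 and SLC7A11 either nutrient alone gave a far higher level than neither or both.

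Of 19 amino acid carriers 14 were more negative, with SLC6A9 at -7.45 ± 0.16. Cytosolic tRNA synthetases were split again, with 12 more negative and 7 more positive of 20, from WARS1 at -3.31 ± 0.033 to FARSA at 1.5 ± 0.049. Among genes ranked as above, the stress cytokine gene GDF15 had the most negative difference, -7.52 ± 0.15. Its means were 4.37 CPM with neither and 37.7 CPM with glucose alone. LURAP1L stood at 14.6, 13.7 and 13.2 CPM with glutamine alone and 1.64, 1.85 and 1.33 CPM with both nutrients and had a difference of -7.10 ± 0.18. PCK2 averaged 27.3 and 168 CPM without glutamine (difference -5.38 ± 0.056). NEAT1 averaged 40.2 CPM with neither nutrient and 738 CPM with glucose alone, against a small fall with glutamine (difference -4.62 ± 0.037).

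Sterol genes moved the other way. In the cholesterol list 20 of 22 differences were positive and 0 negative. INSIG1 averaged 166 CPM with neither nutrient and 31 CPM with glucose alone, so glucose lowered it without glutamine and raised it with glutamine (difference 5.21 ± 0.05). FASN averaged 551 and 179 CPM (difference 3.83 ± 0.029), and IDI1 91.3 and 35.2 CPM (difference 4.30 ± 0.052). With glucose and NH4Cl, INSIG1 averaged 244 CPM and FASN 860.4 CPM, between glucose alone and both nutrients. All 37 replication genes had a positive difference, and PCNA averaged 214 CPM with neither nutrient and 74.9 CPM with glucose alone (difference 3.02 ± 0.045). The level of PCNA with both nutrients was thus near that with neither, and that with glutamine alone near that with glucose alone.

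Heat shock genes gave 5 of the 6 largest positive differences among genes ranked as above, although 12 of 20 also fell with glutamine. All 20 had a positive difference. HSPA1A averaged 25092 CPM with neither nutrient and 66.2 CPM with glucose alone, a far deeper fall than with glutamine present (difference 5.51 ± 0.024). HSPA6 averaged 2634 and 1.65 CPM (difference 4.52 ± 0.18), with the latter and the level with both nutrients near the low end of what was tested. DNAJB1 (4.96 ± 0.025) and BAG3 (4.53 ± 0.039) went with them. FOS averaged 1218 and 15.5 CPM (difference 2.26 ± 0.1). HMOX1 fell in both settings by nearer amounts, from 583 to 49.5 CPM without glutamine (difference -1.13 ± 0.048).

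For groups with small changes the sign of the difference rested on scaling in part. Ribosomal proteins had 73 positive differences and 1 negative of 77, and 54 and 12 with library totals alone. Respiratory chain genes had 48 positive and 1 negative of 51, and 46 and 2 with library totals alone. Mitochondrially encoded genes had 6 positive and 3 negative of 13, but 2 positive and 11 negative with library totals alone. Translation factors had 23 positive and 13 negative of 36, and 15 of each with library totals alone.

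**Figure D5:**
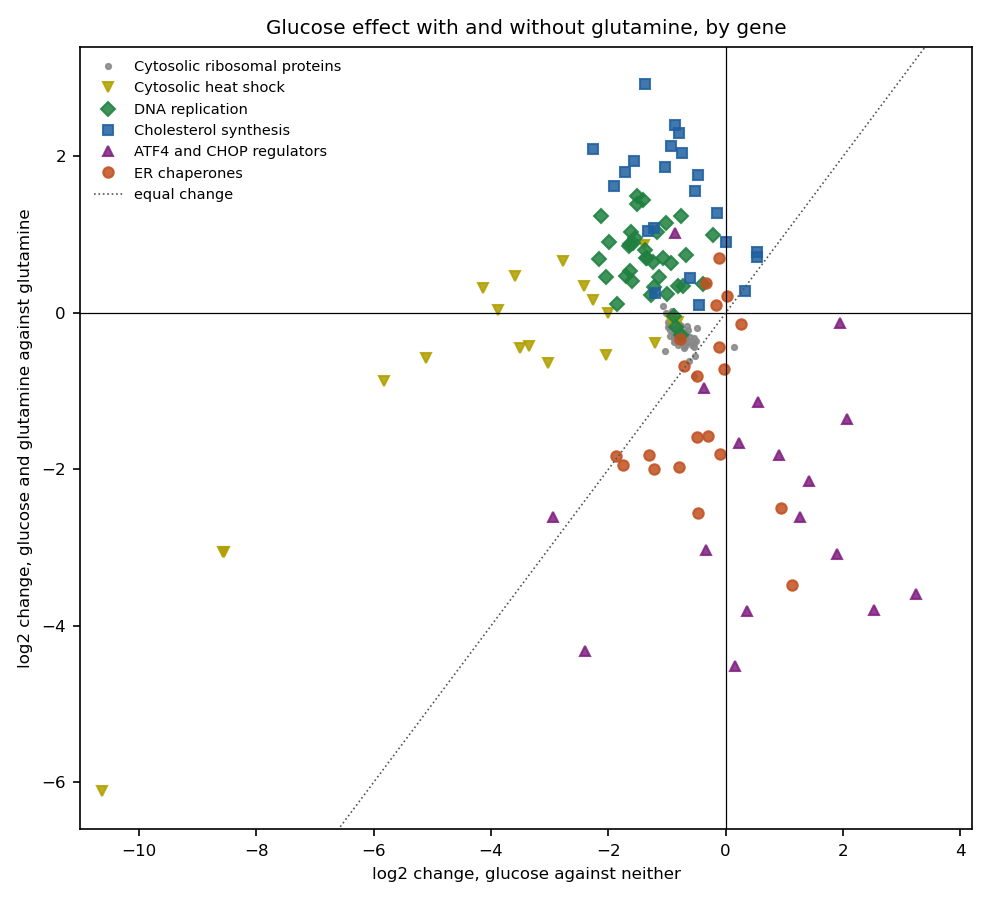
Log2 change on adding glucose without glutamine (horizontal axis) and with glutamine (vertical axis) for the genes of 6 lists, with a dotted line at equal change. Replication genes and nearly all cholesterol genes lie above the line, most chaperone and ATF4 genes below it, and all 20 heat shock genes above it with the deepest falls without glutamine.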

How the data were processed

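The deposited values are whole-number counts for 58395 Ensembl genes, whose totals differ between libraries, so no scaling by the authors was seen. The submitters' processing notes list featureCounts, HISAT2 2.1.0, Subread 1.5.1 and the build GRCh38.p12. The labels' protocols name poly(A) selection and a stranded kit, while the sources used here do not state how strand and reads with several matches were handled in counting. GENCODE 29 gave names and positions for 58275 gene IDs.

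Counts of all 15 libraries were fitted together in edgeR 4.0.16 (R 4.3.3; TMM scaling, filterByExpr, robust quasi-likelihood, 1 coefficient a medium, 10 residual degrees of freedom), and the two-sided contrast was adjusted by Benjamini-Hochberg over the 16889 genes kept. Genes were called at an adjusted p under 0.05. CPM are relative to TMM-scaled totals unless stated. Replicates of a medium were not copies: chi-square over degrees of freedom ran from 1.231 to 1.445 in 6 pairs. Steps were tested on simulated data with changes in a small share of genes, a setting that does not test the scaling of these data.

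The comparison, its members and the gene lists were chosen with earlier results of these data known. Named genes were the 10 largest rises and falls (mean of at least 5 CPM, no overlap), up to 5 members a list in its main direction and 2 in the other with members that did not pass, a panel, and the 6 largest differences of each sign. The differences were ranked among genes at the same mean level that were called both for the difference and for the glucose effect with glutamine. Further list members were named after their values were seen. Genes whose protein ends in a retention signal were to be read as well, which was not done here. Alternatives are given in the closing section. Some single genes that the rule covers are not reported here.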

Additional observations from a re-analysis of the deposited data

Results flagged for a closer look

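The effect of glucose was compared between media with and without glutamine by the test of the difference itself (edgeR's quasi-likelihood test, adjusted over all genes). Only genes called both for that difference and for the glucose effect with glutamine were ranked. They also averaged 5 CPM or more over the 6 libraries with glutamine. The 6 most negative and the 6 most positive are given here. The values are differences of log2 changes, with glutamine minus without. The negative side held GDF15 (-7.52 ± 0.15), SLC6A9 (-7.45 ± 0.16), SLC7A11 (-7.16 ± 0.062), LURAP1L (-7.10 ± 0.18), ASNSP1 (-6.92 ± 0.13) and TRIB3 (-6.85 ± 0.041). For these 6, glucose raised the level without glutamine and lowered it with glutamine. LURAP1L averaged 1.73 CPM with neither nutrient and 27.7 CPM with glucose alone, and ASNSP1 6.48 and 51.1 CPM. ASNSP1 shares sequence with ASNS, so its reads are uncertain.

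The positive side held HSPA1A (5.51 ± 0.024), HSPA1B (5.49 ± 0.024), INSIG1 (5.21 ± 0.05), DNAJB1 (4.96 ± 0.025), BAG3 (4.53 ± 0.039) and HSPA6 (4.52 ± 0.18). INSIG1 fell with glucose alone and rose with glutamine, whereas the 5 heat shock genes fell in both settings and further without glutamine. HSPA1A and HSPA1B are near-identical copies. BAG3 averaged 1668 CPM with neither nutrient and 48.3 CPM with glucose alone.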

How the results depend on the processing

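Of 301 genes named with a value, 257 kept their direction and their side of the threshold in every setting tried (DESeq2 size factors, library totals alone, no filter on low counts, a minimum of 1 CPM in 3 libraries, DESeq2 1.42.0 by its Wald test, a 1.2-fold threshold in edgeR, a fit of the 2 groups only, the replicate block and each library left out). The number of called genes was 11074 with DESeq2 size factors, 10195 with DESeq2, 10501 with no filter and 10781 at 1 CPM or more. Leaving out 1 of the 6 libraries at a time gave 10432 to 10607 called genes for the glucose effect. It moved no list count in a list's main direction by over 1.5 times. Small counts in the other direction could move, since the rises of ARRDC4, MLXIPL and RPS26 lost their calls in some of these fits. For the difference, leaving out 1 library at a time from the media it uses gave 12437 to 12546 called genes.

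With library totals alone 10 vesicle coat genes and 7 glycolysis genes were lower instead of 22 and 13, 11123 genes were called, and autophagy had 11 rises instead of 6, degradation from the reticulum 10 instead of 6, the translocon list 9 instead of 5, the NRF2 list 7 instead of 4 and translation factors 8 instead of 4. Of the differences 1568 were positive at 2-fold or more instead of 2619. The log2 change of CCN2 turned to 0.08, that of GAPDH to 0.05 and that of HLA-B to 0.10. CYP51A1, CPT1A, EDEM2, GLUL, CNPY2, MESD, HLA-C, SEC61B, RPL38 and TRIM5 then passed as higher, and PRIM1, PSPH, RARS1, ERO1A and UBE2C no longer passed. The shift of 0.099 that this scaling gives to every gene is of the size of these changes.

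Against a 1.2-fold change 6485 genes passed, 3317 higher and 3168 lower. Lower calls then numbered 8 in oxidative folding, 11 in degradation from the reticulum, 5 in vesicle coats, 4 in mitochondrial synthetases, 5 in glycolysis, 3 among MondoA targets, 4 in the pentose phosphate list, 9 in autophagy, 6 in the lysosome, 39 among ribosomal proteins, 19 among translation factors, 6 in cell death and 7 among integrins. Higher calls numbered 6 in fatty acid oxidation, 11 in the citric acid cycle list, 21 in the respiratory chain, 10 in the proteasome, 6 among YAP genes and 5 among receptor kinases. The named genes that did not pass it were ARRDC2, ARRDC4, ATF6B, CDT1, EIF4E, ERO1A, FARSA, GAPDH, GOT2, GPX8, HARS1, JUNB, MLXIPL, MT-ND1, NPLOC4, NSDHL, OGA, PRIM1, PSMG2, PSPH, QARS1, RARS1, RPS26, SCAP, SEC24A, SEC61A1, SEC61G, TMEM258, TMX1, UBE2C, UFD1 and VCP. With the Wald test of DESeq2, ARRDC4 and MLXIPL were not called.

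Residual correlations were 0.00973 to 0.0274 between libraries of equal replicate number and -0.0229 to -0.00241 between the others. The signs differ, but any pairing by number was slight. With the replicate block 11061 genes were called instead of 11073, and no named gene changed its call. At these depths a gene with 3 counts lies at 0.15 to 0.192 CPM, so genes such as TXNIP and IL6 could not be tested.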
